A study of Macaca mulatta with 6 samples.

Results

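miR-122, miR-885, miR-802, miR-375, miR-577, miR-31, miR-203 and miR-205 were examined in the plasma of rhesus monkeys after and before ischemic stroke. Most of these 8 miRNAs are known from the liver or from other epithelial tissues. Every entry of the deposited table whose name, without species, arm, isomiR suffix and copy number, is a member with or without a closing letter was taken, which gave 13 of 2046 entries. This rule goes by name and not by value, although the 8 miRNAs were chosen with earlier results of these data known.

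The libraries came from adult male rhesus monkeys (*Macaca mulatta*), with 3 plasma libraries after ischemia and 3 before ischemia. After ischemia means 3 h after a clot had been flushed through a micro-catheter into the right middle cerebral artery (MCAO), and the study kept monkeys whose artery was still closed at that time. Before ischemia means the baseline sample of the same monkeys, and both samples were taken from a vein of the leg. Fasting, anesthesia and catheterization belonged to the procedure, and no sham-operated group was analysed here, so ischemia, the intervention and elapsed time cannot be told apart. Libraries of the same number were taken as the same monkey, so that n = 3 counts monkeys.

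Levels are given as the authors' normalized counts, in which the read counts of a library are multiplied by 1 factor. The libraries held 6036832 to 9737589 counts after ischemia and 10745499 to 15548693 before ischemia. A value of 0 therefore allows up to 3 counts, which are 3.85 to 5.58 normalized counts after ischemia and 1.70 to 2.34 before ischemia. Red blood cell miRNAs (miR-451, miR-486 and miR-144) took 13.3% to 33.1% of the normalized counts after ischemia and 6.68% to 18.9% before ischemia. Platelet miRNAs (miR-223, miR-126 and miR-197) took 3.69% to 5.79% after ischemia and 4.74% to 7.88% before ischemia, and leukocyte miRNAs (miR-142, miR-150, miR-155 and miR-342) 3.23% to 3.60% after ischemia and 1.95% to 2.52% before ischemia. All of these markers were detected. Entries within each sum differed in direction. In the red blood cell sum, mml-miR-486-5p had means of 2712510 normalized counts after ischemia and 807217 before ischemia. mml-miR-451_R-1 had 233581 and 162395, and the rarer eca-miR-451_L+1R-1_1ss20TA had 52.3 and 91.7. In the platelet sum, mml-miR-197-3p had 6369 and 2470, while mml-miR-126 had 167336 and 197012. In the leukocyte sum, miR-142-5p had means of 320607 after ischemia and 122653 before ischemia. There miR-142-3p had 733 and 6283, and miR-155 had 63119 and 61223. In plasma a change in release from a tissue, in clearance and in the number of cells that release a miRNA cannot be told apart.

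A miRNA is cut from a hairpin precursor, and its 5p or 3p arm pairs with mRNAs mainly through the seed, the bases 2 to 8. miR-122 is by far the most abundant miRNA of hepatocytes and is used in blood as a marker of liver injury. miR-885 is enriched in liver as well, and miR-802 is known from liver, pancreas and intestine, mostly through work in mice. miR-375 is a miRNA of pancreatic islets and of endocrine and other epithelial cells of the gut. miR-203 and miR-205 belong to skin and other stratified epithelia, where miR-203 promotes the differentiation of keratinocytes, and miR-31 is found in keratinocytes and intestinal epithelium but also in other cells.

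The sequences of the leading entry of each miRNA are shown from the deposited table, 5′ to 3′ and in DNA letters, with the seed in capitals, because the arms and isomiRs described below are told apart by them. In the entry names, L stands for bases added (+) or missing (−) at the 5′ end and R for those at the 3′ end.
mml-miR-122a-5p_R-1: tGGAGTGTgacaatggtgttt
mml-miR-885-5p: tCCATTACactaccctgcctct
mml-miR-802_L+1R-2: tCAGTAACaaagattcatcctt
mml-miR-375: tTTGTTCGttcggctcgcgtga
mml-miR-577-5p_R+1: tAGATAAAatattggtacctga
mml-miR-31-5p_L+1R+1: aGGCAAGAtgctggcatagctga
mml-miR-203: gTGAAATGtttaggaccactag
mml-miR-205: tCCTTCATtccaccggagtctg
No 2 of the 13 entries shared a seed. In the RefSeq annotation of the rhesus assembly T2T-MMU8v2.0, all 8 genes were found by name. MIR577 lies in UGT8 and MIR885 in ATP2B2, while the nearest protein-coding genes of MIR122A are ALPK2 and NEDD4L.

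miR-122 had 4 entries, and they differ in where they come from on the hairpin. The 3p arm, an isomiR that starts 2 bases earlier, and an entry named for human miR-122b are shown because they are told from the 5p arm by sequence alone and were rare.
mml-miR-122a-3p_L+1R-1: aACGCCATtatcacactaaat
mdo-miR-122-5p_L+2R-4: aATGGAGTgtgacaatggtgttt
hsa-miR-122b-5p_R-2: tTTAGTGTgataatggcgttt
mdo-miR-122-5p_L+2R-4 holds all 21 bases of mml-miR-122a-5p_R-1, so that its seed is shifted. hsa-miR-122b-5p_R-2 is complementary to mml-miR-122a-3p_L+1R-1 over 20 bases, and human miR-122b is annotated on the strand opposite to miR-122.

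After ischemia miR-577 and miR-802 were counted in each of the 3 libraries, and neither was counted in any library before ischemia. mml-miR-577-5p_R+1 had 153, 64.1 and 20.5 normalized counts after ischemia and 0 in all 3 libraries before ischemia. These are 111, 50 and 11 counts after ischemia, against 0 counts in each library before ischemia, although the libraries before ischemia were larger. The mean of 79.2 ± 67.6 normalized counts after ischemia (SD, n = 3) was at least 39.3-fold higher than 3 counts in each library before ischemia, and at least 21.0-fold higher without replicate 1 after ischemia. The lowest library after ischemia was at least 8.75-fold higher than 3 counts in the library before ischemia with the highest such level. The entry passed the test across all 807 entries that reached 10 normalized counts in 3 libraries (limma on log2 of the normalized count plus 1, adjusted p = 0.0153, with a log2 fold change of 5.91 and a standard error of 1.07). That log2 fold change depends on the number added to the 0 values and is no bound, and the entry reached the filter through its libraries after ischemia alone. The call was lost without replicate 1 after ischemia. With the filter set to 2 libraries, since the entry otherwise leaves the test, the log2 fold change was then 5.22 and the adjusted p 0.0735. Over the 14 alternative settings in which the entry was tested, the adjusted p from limma was 0.00749 to 0.0735. It was not tested with a filter of 50, or with 1 library after ischemia left out at the main filter.

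mml-miR-802_L+1R-2 had 91.0, 51.3 and 9.30 normalized counts after ischemia, which are 66, 40 and 5 counts, and 0 in all 3 libraries before ischemia. The mean of 50.5 ± 40.9 (SD, n = 3) was at least 25.1-fold higher than 3 counts in each library before ischemia, at least 15.0-fold higher without replicate 1 after ischemia, and at least 3.98-fold higher for the lowest library after ischemia. The lowest library after ischemia, replicate 3, missed the filter on low values, so this entry was not among those tested. With no filter it passed at an adjusted p of 0.0353 (limma over 2046 entries, log2 fold change 5.20 with a standard error of 1.24), and with the filter at 2 libraries the adjusted p was 0.0377. That filter was chosen after the values were seen, and miR-802 reached it through 2 libraries after ischemia alone. With that filter it left the test without replicate 1 or replicate 2 after ischemia, since too few libraries then remained.

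Both miRNAs had their highest value in monkey 1 and their lowest in monkey 3 after ischemia. The libraries after ischemia had the same order by depth, with 9737589, 8793196 and 6036832 counts in monkeys 1, 2 and 3. The part of depth in this order was not tested. The other epithelial miRNAs (miR-192, miR-194 and miR-215, the miR-200 family and the miR-183 cluster), taken as a sum, had the same order and made up 8.06%, 4.22% and 1.46% of the normalized counts after ischemia in monkeys 1, 2 and 3, against 0.223%, 0.111% and 0.104% before ischemia. After ischemia the sum was mostly mml-miR-192-5p and mml-miR-215-5p_R+1 (means 376410 and 176631). The next tested entry, mml-miR-194-5p_R-1, had a mean of 4945, so the order of the sum is mostly theirs and not that of each miRNA. Of the 16 tested entries of all these other epithelial miRNAs, 12 were higher and 0 lower in limma, with a median log2 fold change of 3.72, beside 1.98% higher, 3.47% lower and a median of −0.06 over all 807 entries. The 12 include mdo-miR-215_R+1 and mmu-miR-194-1-3p_R-2_1ss10CA, with means of 0 and 1.57 before ischemia. Both reached the filter through their libraries after ischemia alone, so their calls add nothing to this count, and their log2 fold changes depend on the added 1. The part of the tissues that release the other epithelial miRNAs in the levels of miR-577 and miR-802 was not tested. Over the 6 libraries, mdo-miR-215_R+1 and mml-miR-192-5p had the profiles nearest to miR-577-5p among tested entries outside the 8 miRNAs. Their root mean square differences of the centered values of log2(normalized count + 1) were 0.35 and 0.55. Since miR-577-5p was at 0 before ischemia, these differences depend on the added 1. mdo-miR-215_R+1 had 96.5, 64.1 and 11.2 normalized counts after ischemia and 0 in all libraries before ischemia.

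**Figure D1:**
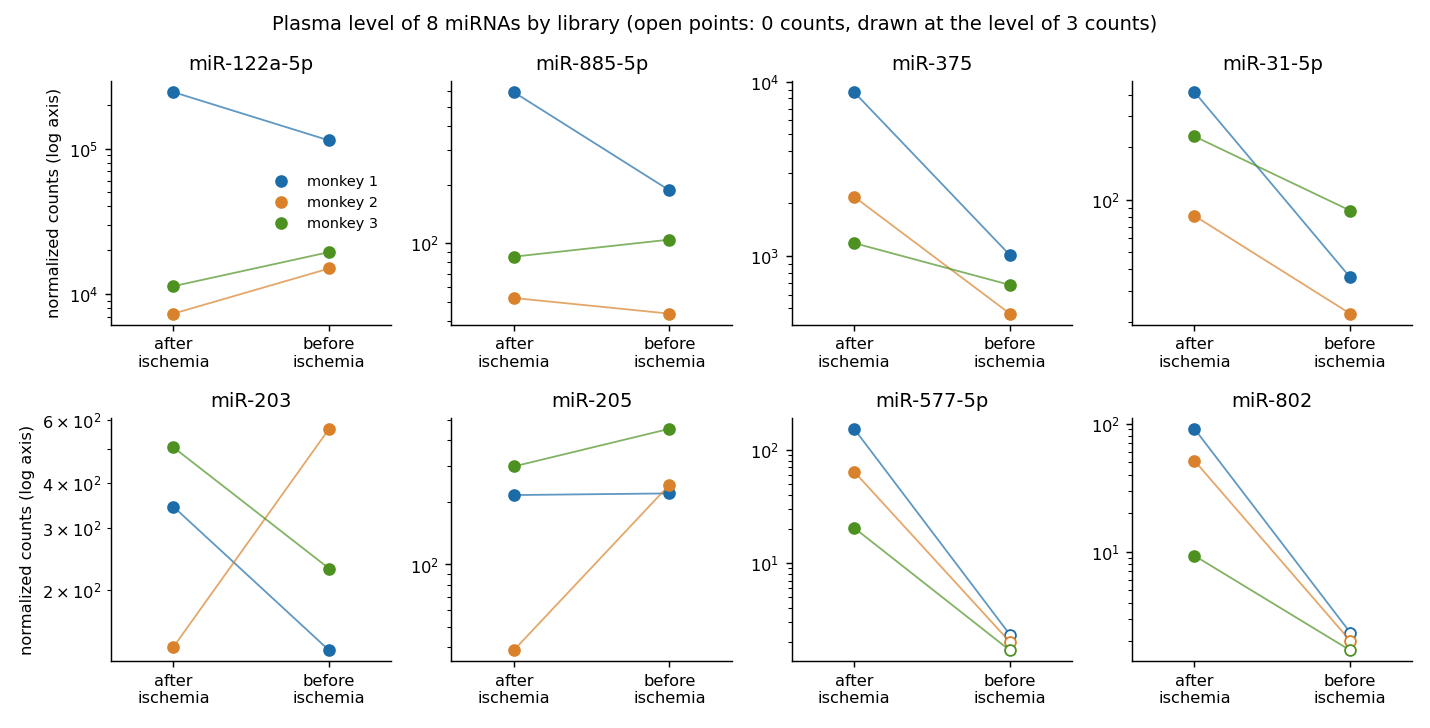
Normalized counts (log axis) of 8 miRNA entries in each library, after ischemia on the left and before ischemia on the right of each panel, with a line for each monkey; open points are libraries with 0 counts, drawn at the level of 3 counts. miR-577-5p and miR-802 were counted only after ischemia, miR-375 separated the groups (1185 to 8697 after ischemia, 467 to 1012 before ischemia), and miR-122a-5p was highest in monkey 1 in both groups.

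miR-122, the hepatocyte miRNA, was the most abundant of the 8 and varied more from monkey to monkey within each group than its mean did between the groups. mml-miR-122a-5p_R-1 had 244156, 7342 and 11333 normalized counts after ischemia and 113642, 14994 and 19431 before ischemia. It took 1.82% of the library of monkey 1 after ischemia, where it ranked 10 among all entries, and 1.36% before ischemia, where it ranked 18. In monkeys 2 and 3 it took 0.0651% and 0.101% after ischemia and 0.146% and 0.221% before ischemia. Monkey 1 was thus high at both times, and the groups overlapped.

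The highest and the lowest library differed 33.3-fold after ischemia and 7.58-fold before ischemia. Within the monkeys the level after ischemia was 2.15 times that before ischemia in monkey 1, 0.490 times in monkey 2 and 0.583 times in monkey 3. The mean was 87610.2 ± 135587 normalized counts after ischemia and 49356 ± 55718 before ischemia (SD, n = 3 each). The log2 fold change was −0.23 (standard error 1.28, 95% interval −3.16 to 2.69, adjusted p = 0.946 from limma), an interval that takes the libraries as unpaired. With replicate number as a block the standard error was 0.445 (adjusted p = 0.780), and without both libraries of replicate 1 the log2 fold change was −0.90 (standard error 0.381, adjusted p = 0.280). Its sign turned without replicate 2 after ischemia (0.71), with replicate 3 after ischemia left out (0.40) or with replicate 1 before ischemia left out (0.68). Among tested entries outside the 8 miRNAs, the predicted entry PC-5p-8729_165 had the profile nearest to miR-122a-5p. It differed by a root mean square of 0.80 log2, and the next, pal-miR-9993b-3p_1ss1AT, by 1.09. The spread of miR-122a-5p on the same scale was 1.84.

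The 3p arm of miR-122 was counted in the 3 libraries with the highest level of the 5p arm. mml-miR-122a-3p_L+1R-1 had 200 counts in monkey 1 after ischemia and 0 in the other libraries after ischemia, against 26, 0 and 18 before ischemia. Its groups overlapped, and its log2 fold change of 0.07 (standard error 2.29, 95% interval −5.14 to 5.29, adjusted p = 0.991 from limma) became −1.24 without replicate 2 before ischemia. The 3p arm made up 0.113% of the counts of both arms in monkey 1 after ischemia (exact 95% interval 0.0977% to 0.130%), against 0.0178% before ischemia (0.0116% to 0.0261%). In monkey 3 it made up 0 of 6094 counts after ischemia (exact upper limit 0.0605%) and 0.0524% before ischemia (0.0310% to 0.0827%), which were not told apart at this depth. These intervals cover counting error only. The shares averaged 0.0376 ± 0.0651% after ischemia and 0.0234 ± 0.0266% before ischemia (SD, n = 3 each, exact two-sided permutation test, p = 1). mdo-miR-122-5p_L+2R-4 had 19 counts after and 11 before ischemia in monkey 1 and 0 elsewhere. hsa-miR-122b-5p_R-2 had 6, 0 and 0 counts after ischemia and 6, 0 and 6 before ischemia.

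The table also held 4 entries named for the bat miRNA miR-10014-5p that start with the same 16 or 17 bases as mml-miR-122a-5p_R-1 and end otherwise, and 2 of them are shown with the shared bases in capitals.
pal-miR-10014-5p_1ss17AT: TGGAGTGTGACAATGGTaa
pal-miR-10014-5p_R+1: TGGAGTGTGACAATGGaaaa
The 4 entries together reached 0.0678% of the level of the 5p arm in monkey 1 after ischemia, against 0.0768%, 0.0807% and 0.0757% in monkeys 1, 2 and 3 before ischemia. In monkeys 2 and 3 after ischemia they were not counted, where 3 counts would be 0.0524% and 0.0492% of miR-122a-5p. Their share of miR-122 thus lay within a narrow range wherever they were counted, while miR-122 itself varied many-fold. The limits in monkeys 2 and 3 after ischemia lay below that range, so it does not describe all libraries. These entries carry another name and were not added to miR-122.

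miR-885, likewise of liver, showed the same division between monkeys. mml-miR-885-5p had 596, 52.6 and 85.5 normalized counts after ischemia and 187, 43.7 and 105 before ischemia, and its 3p arm mml-miR-885-3p_R-1 had 116, 6.41 and 22.3 after ischemia and 40.5, 13.4 and 29.4 before ischemia. Monkey 1 was the highest and monkey 2 the lowest at both times and for both arms. The 5p arm was higher after ischemia in 2 of 3 monkeys and the 3p arm in 1 of 3. The log2 fold changes were 0.55 for the 5p arm (standard error 0.931, 95% interval −1.58 to 2.67, adjusted p = 0.791 from limma) and 0.05 for the 3p arm (standard error 1.03, 95% interval −2.30 to 2.40, adjusted p = 0.985 from limma).

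Single libraries set these signs. With replicate 1 after ischemia left out the log2 fold change was −0.50 for the 5p arm and −1.0 for the 3p arm, and with replicate 2 before ischemia left out it was −0.0054 and −0.38. The nearest profiles to miR-885-5p were mml-miR-511-5p_L+2 and the predicted PC-3p-19317_68, each with a root mean square difference of 0.55 log2. The 3p arm made up 16.3%, 10.9% and 20.7% of the counts of both arms after ischemia and 17.8%, 23.5% and 21.9% before ischemia (15.9 ± 4.92% and 21.1 ± 2.95%, SD, n = 3 each, exact permutation p = 0.2), on 46 to 516 counts per library. The 3p arm of miR-885 thus made up a larger part of the counts of both arms than that of miR-122 in each library.

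The ratio of miR-122 to miR-885 removes the scaling of the libraries. All entries of miR-122 together were 344, 124 and 105 times as high as those of miR-885 in monkeys 1, 2 and 3 after ischemia, and 499.7, 262 and 145 times before ischemia. On the log2 scale the ratio was 7.35 ± 0.933 after ischemia and 8.05 ± 0.895 before ischemia (SD, n = 3 each), lower after ischemia in 3 of 3 monkeys, and the difference of −0.69 did not exceed the spread of the groups (exact two-sided permutation test, p = 0.4, adjusted over 2 ratios 0.4). This spread and this test take the libraries as unpaired. With sign flips of the 3 pairs the p was 0.25, the smallest possible, so that test cannot decide whether the ratio changed.

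The ratio of miR-122 to miR-192 behaved otherwise. miR-192 is expressed in liver and, strongly, in intestinal epithelium. In monkeys 1, 2 and 3 the log2 ratio was −1.56, −5.32 and −3.33 after ischemia and 3.02, 1.14 and 1.49 before ischemia, so that the groups did not overlap. miR-192 was 2.95, 40.1 and 10.1 times as high as miR-122 after ischemia, while miR-122 was 8.12, 2.21 and 2.81 times as high as miR-192 before ischemia. The means of −3.41 ± 1.88 after ischemia and 1.88 ± 1.0 before ischemia (SD, n = 3 each) differed by −5.29 (exact two-sided permutation test, p = 0.1, adjusted over 2 ratios 0.2), and with 3 libraries in each group no smaller p than 0.1 was possible. Leaving out replicate 1 after ischemia gave a difference of −6.21, and leaving out replicate 2 of that group gave −4.33. By itself mml-miR-192-5p was higher after ischemia with a log2 fold change of 5.06 (adjusted p = 0.00380 from limma), beside −0.23 for miR-122a-5p.

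**Figure D2:**
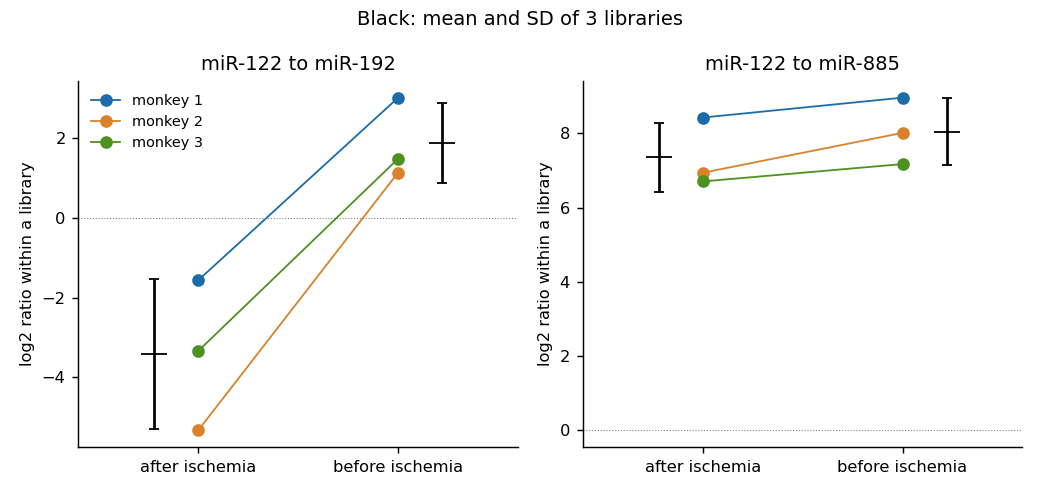
Log2 ratio within each library of all entries of miR-122 to those of miR-192 (left) and to those of miR-885 (right), after ischemia and before ischemia, with a line for each monkey and the mean and SD of 3 libraries in black. The ratio to miR-192 was below 0 in all libraries after ischemia and above 0 in all before ischemia, while the ratio to miR-885 was 6.70 to 8.42 after ischemia and 7.17 to 8.96 before ischemia.

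Of the 7 tested entries of other miRNAs of liver (miR-192, miR-194, miR-148a and miR-101), 3 were higher and 2 lower, with a median log2 fold change of −0.35, beside 1.98% higher, 3.47% lower and a median of −0.06 over all tested entries. The 3 higher entries belong to miR-192 and miR-194, which are in the epithelial list as well. Among them, mmu-miR-194-1-3p_R-2_1ss10CA (mean 1.57 before ischemia) reached the filter through its libraries after ischemia alone, so its call adds nothing to the count. The lower entries were mml-miR-148a-3p (log2 fold change −2.05, adjusted p = 0.0118 from limma) and mml-miR-101-3p (−2.37, adjusted p = 0.0153), both of which are also expressed outside the liver.

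miR-375 was higher after ischemia in each monkey, and its groups did not overlap. mml-miR-375 had 8697, 2185 and 1185 normalized counts after ischemia and 1012, 467 and 682 before ischemia, or 6308, 1704 and 637 counts against 1299, 694 and 1206. The monkeys differed by 8.59-fold, 4.68-fold and 1.74-fold. The means were 4022 ± 4079 after ischemia and 720.2 ± 275 before ischemia (SD, n = 3 each). The log2 fold change of 2.04 (standard error 0.687, 95% interval 0.47 to 3.61) did not pass (adjusted p = 0.137 from limma, range over all settings 0.0573 to 0.300). When libraries were scaled by their totals the groups overlapped.

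The highest library after ischemia weighed heavily, since without replicate 1 after ischemia the log2 fold change was 1.23 (adjusted p = 0.234). The order of the monkeys after ischemia was that of miR-577, of miR-802 and of the sum of the other epithelial miRNAs, which is mostly miR-192-5p and miR-215-5p. It was also the order of the libraries after ischemia by depth. The profiles nearest to miR-375 were oga-miR-100_R+1 (root mean square difference 0.32 log2) and mml-miR-183-5p_L-1R-1 (0.42). mml-miR-183-5p_L-1R-1 had 241, 42.3 and 48.4 normalized counts after ischemia and 29.6, 19.5 and 14.7 before ischemia, with monkey 3 above monkey 2 after ischemia. The spread of miR-375 on the same scale was 1.37.

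miR-31 was also higher after ischemia in each monkey, yet with an overlap of the groups. mml-miR-31-5p_L+1R+1 had 414, 80.8 and 231 normalized counts after ischemia and 35.8, 22.2 and 86.5 before ischemia, which are 300, 63 and 124 counts against 46, 33 and 153. The lowest library after ischemia lay just below the highest before ischemia. The means of 242 ± 167 after ischemia and 48.2 ± 33.9 before ischemia (SD, n = 3 each) gave a log2 fold change of 2.24 (standard error 0.742, 95% interval 0.54 to 3.93), which did not pass (adjusted p = 0.130 from limma, range over all settings 0.0549 to 0.384). Its 3p arm, mml-miR-31-3p_L+1, had 7 counts in monkey 1 after ischemia and 0 in the other 5 libraries.

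The nearest profile to miR-31-5p was an isomiR of the red blood cell miRNA miR-486, hsa-miR-486-5p_R+1, with 9534, 2455 and 5867 normalized counts after ischemia and 894, 999.9 and 2400 before ischemia (root mean square difference 0.30 log2, against a spread of miR-31-5p of 1.43), followed by cja-miR-3135_L-1R-1_1ss10CG (0.37). The red blood cell miRNAs took 33.1%, 13.3% and 27.3% of the normalized counts after ischemia and 7.77%, 6.68% and 18.9% before ischemia, so that the monkeys had the same order by this share as by miR-31-5p, both after and before ischemia. As a measure of hemolysis, miR-451 over miR-23a stood at log2 values of 2.19, −0.16 and 1.86 after ischemia and 0.33, 0.11 and 1.90 before ischemia, with an overlap of the groups. The red blood cell share was mostly mml-miR-486-5p (means 2712510 after ischemia and 807217 before ischemia, beside 233581 and 162395 for mml-miR-451_R-1). This share and the nearest profile thus come mostly from the same miRNA. The part of red blood cells in the level of miR-31 was not tested.

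**Figure D3:**
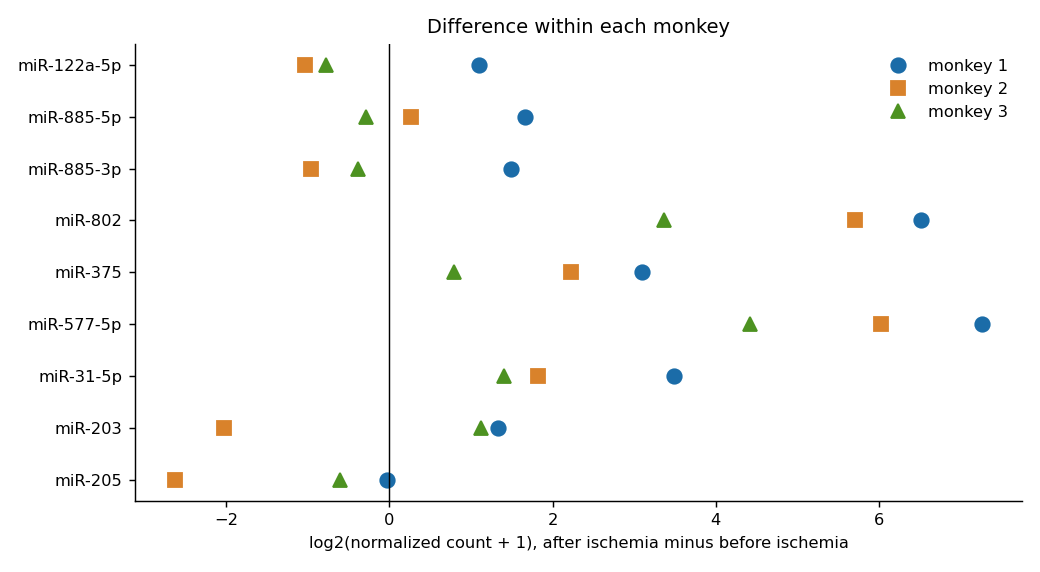
Difference of log2(normalized count + 1) after ischemia minus before ischemia within each monkey, for 9 entries. miR-577-5p, miR-802, miR-375 and miR-31-5p were above 0 in all 3 monkeys, miR-205 was below 0 in all 3, and miR-122a-5p, both arms of miR-885 and miR-203 lay on both sides.

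miR-203 and miR-205, of stratified epithelia, overlapped between the groups and did not pass the test. mml-miR-203 had 343, 138 and 504 normalized counts after ischemia and 136, 568 and 230.1 before ischemia. It was higher after ischemia in monkeys 1 and 3, by 2.53-fold and 2.19-fold, and was 0.244 times the level before ischemia in monkey 2. The log2 fold change was 0.14 (standard error 0.661, 95% interval −1.36 to 1.65, adjusted p = 0.938 from limma). It was −0.24 when libraries were scaled by their totals, −0.26 with replicate 3 after ischemia left out and −0.33 with replicate 1 before ischemia left out, so that no direction can be given. hsa-miR-3064-5p and mml-miR-450b-5p_R-1 had the nearest profiles, at root mean square differences of 0.32 and 0.37 log2.

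mml-miR-205 had 216, 38.5 and 298 normalized counts after ischemia and 220.5, 243 and 452 before ischemia. It was lower after ischemia in 3 of 3 monkeys, at 0.982, 0.158 and 0.658 times the level before ischemia, and monkey 1 was nearly level. The means of 184 ± 133 after ischemia and 305 ± 128 before ischemia (SD, n = 3 each) gave a log2 fold change of −1.09 (standard error 0.757, 95% interval −2.81 to 0.64, adjusted p = 0.432 from limma). Its size rested largely on monkey 2, since it was −0.19 without replicate 2 after ischemia. The nearest profiles were hsa-mir-548ba-p3 and hsa-miR-548ae-3p_R-2, which held the same values in every library (0.26 log2 from miR-205).

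Of the 13 entries 9 were tested, and 1 of the 9 was higher and 0 lower at an adjusted p below 0.05 in limma, while 1.98% of all 807 tested entries were higher and 3.47% lower. The entry that passed, miR-577-5p, entered the test only through its libraries after ischemia, so its call adds nothing to a count of the members. Of the other 8, miR-31-5p and miR-375 were higher at an unadjusted p below 0.05 and 0 were lower, while 9.79% of all tested entries were higher and 12.5% lower. Among these 8, the libraries after ischemia lay above all those before ischemia for miR-375 and below them for none, while 11.5% of all tested entries lay above and 15.4% below. The 4 entries not tested were miR-802, miR-31-3p and the rare isomiR and opposite-strand entries of miR-122.

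**Figure D4:**
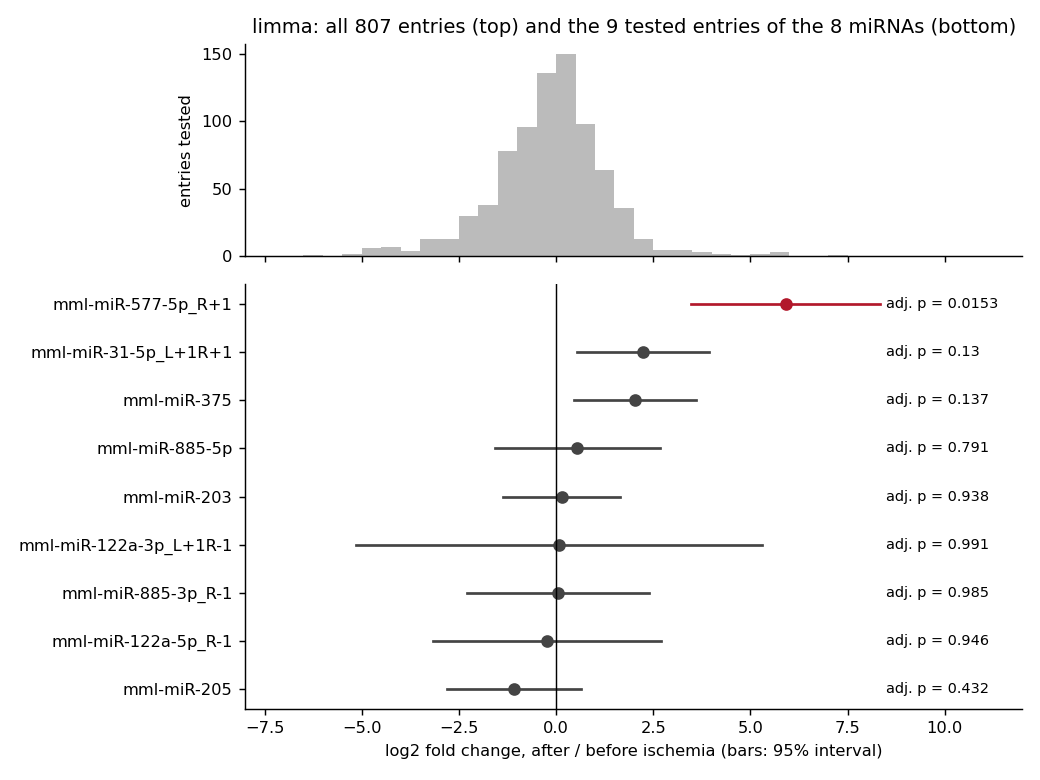
Log2 fold change after ischemia over before ischemia from limma for all 807 tested entries (top, number of entries in bins of 0.5) and for the 9 tested entries of the 8 miRNAs (bottom), with 95% intervals and adjusted p. The interval of miR-577-5p (red, 3.48 to 8.33) is that of an entry at 0 in all libraries before ischemia, and those of miR-122a-5p, miR-122a-3p, both arms of miR-885, miR-203 and miR-205 include 0.

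Summed over arms and isomiRs, no miRNA passed an exact two-sided permutation test of the log2 level. The p was 0.1, the smallest these libraries allow, for miR-577, miR-802 and miR-375 (adjusted over the 8 miRNAs 0.267), 0.2 for miR-31 (0.4), 0.4 for miR-205 (0.64), 0.8 for miR-885 (0.9) and 0.9 for miR-122 and miR-203 (0.9).

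In the same sums, miR-122 and then miR-375 stood at the head of the order of levels in both groups. miR-122 had a median of 11333 normalized counts after ischemia and 19444 before ischemia, and miR-375 2185 and 682. All these miRNAs are of similar length, and the ranges of miR-122 and miR-375 overlapped after ischemia, although miR-122 was higher in each library, and did not overlap before ischemia. The order below them differed between the groups. After ischemia it was miR-203, miR-31, miR-205, miR-885, miR-577 and miR-802, and before ischemia miR-205, miR-203, miR-885 and miR-31, with miR-802 and miR-577 at 0. Neighbours in this part of the order overlapped, apart from miR-31 and the miRNAs at 0 before ischemia. All 8 miRNAs together made up 1.90%, 0.0883% and 0.122% of the normalized counts after ischemia and 1.38%, 0.159% and 0.239% before ischemia, and miR-122 alone was 73.7% to 95.8% of that sum after ischemia and 91.7% to 98.6% before ischemia.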

How the data were processed

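Small RNA of plasma was sequenced for 3 libraries after ischemia and 3 before ischemia. With ACGT101-miR the authors filtered reads by quality and by miRNA length, discarded other ncRNA found in Rfam and aligned the rest to precursors; its version and the genome build are not given in the sources used here. The deposited table gives a signal per entry and library, which the authors call normalized; 5 lines without values were left out. The factor of each library was found as the step of which 84.0% to 86.6% of the values above 0 were whole multiples (within 0.01 counts). The others were fractions, so no count model was used.

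Entries at 10 normalized counts in 3 libraries were tested with limma 3.58.1 in R 4.3.3 on log2(value + 1), with a variance trend and no covariate, adjusted by the Benjamini-Hochberg method over all entries, and checked on simulated data. Exact permutation tests were run in Python 3.11.15. The smallest p is 0.1 for 3 libraries against 3. Each member entry was named, with the 2 nearest profiles of the most abundant tested entry of each miRNA. Replicate numbers were taken as pairs, since the study speaks of changes in the same monkey and deviations from the group means correlated at 0.18, 0.36 and 0.29 between same-numbered libraries, against −0.40 to 0.14 otherwise. Members, lists and tests were chosen with earlier results of these data known. Alternatives were other scalings, filters, pseudocounts, variance priors, the block, summed isomiRs and left-out libraries.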

Additional observations from a re-analysis of the deposited data

How the results depend on the processing

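The number of member entries past the threshold was 1 in limma. It stayed at 1 under both other scalings, both other pseudocounts, with no variance trend, with summed isomiRs and with replicate number as a block, which changed no call of a member (adjusted p = 0.0338 for miR-577-5p, 0.0573 for miR-375 and 0.0631 for miR-31-5p in limma). It was 2 with no filter and with 10 normalized counts in 2 libraries, where miR-802 passed as well, and 0 with a filter of 50. Leaving out 1 library gave 0 to 1, since miR-577-5p leaves the test without any library after ischemia. With the filter at 2 libraries the number was 0 without replicate 1 after ischemia, 1 without replicate 2 and 2 without replicate 3, and without both libraries of replicate 1 it was 0. The filter at 2 libraries and the omission of a monkey were chosen after the values were seen.

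Scaled by totals, the median log2 fold change of all entries moved by −0.37. The log2 fold change then turned to −0.23 for miR-122a-3p, −0.24 for miR-203, summed or not, and −0.33 for miR-885-3p, and with a pseudocount of 0.5 that of miR-122a-3p was −0.23. Without both libraries of replicate 1 it was −0.90 for miR-122a-5p, −0.45 for miR-203, −0.013 for miR-885-5p and −0.67 for miR-885-3p. Leaving out 1 library gave −1.82 to 0.71 for miR-122a-5p, −1.24 to 1.43 for miR-122a-3p, −0.33 to 0.70 for miR-203, −0.50 to 1.24 for miR-885-5p and −1.0 to 0.99 for miR-885-3p, and for the sums −1.82 to 0.71 for miR-122 and −0.59 to 1.20 for miR-885. With the filter at 2 libraries, miR-122a-5p was 0.71 without replicate 2 and 0.40 without replicate 3 after ischemia, miR-122a-3p was −2.63, miR-885-5p −0.50 and miR-885-3p −1.0 without replicate 1, and miR-203 was −0.26 without replicate 3. miR-31-5p, miR-205, miR-375 and miR-577-5p and both ratios kept their sign in each setting in which they could be computed. The exact tests with the replicate block (sign flips of 3 pairs) cannot fall below p = 0.25. Entries below about 10 counts, such as those of miR-31-3p and miR-122b, are limited by depth.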
